A study of Rattus norvegicus with 12 samples.

Results

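The signal recognition particle RNA (7SL), the Y RNAs and the vault RNA are short noncoding RNAs transcribed by RNA polymerase III. 7SL is the scaffold of the signal recognition particle, which brings ribosomes that make secreted and membrane proteins to the endoplasmic reticulum. Y RNAs are bound by the proteins Ro60 and La and take part in RNA quality control, vault RNA is the RNA of the vault, a large cytoplasmic particle, and 7SK RNA holds the elongation kinase P-TEFb inactive in the nucleus. Mammalian genomes also hold many further copies of such genes, most of them regarded as inactive.

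Members were the genes of the deposited table whose name is Metazoa_SRP, Y_RNA or Vault, the family names for 7SL, Y and vault RNA, with every copy kept under its own Ensembl identifier. They came to 45 of 30560 genes, of which 26 were 7SL copies, 18 were Y RNA copies and 1 was a vault RNA gene. No gene of the deposited table has the name 7SK, so 7SK RNA, which belongs to the same group, has no value here. Only the genes of its protein partners are given. Rn7sl1, a 7SL gene listed under its own symbol, is reported beside the members.

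The samples were 6 libraries of whole red gastrocnemius muscle and 6 libraries of mitochondria from the same 6 animals, which were wild-type male Wistar Kyoto rats aged 9 weeks. The mitochondria were immunoprecipitated from fresh muscle and then exposed to RNase A and proteinase K, while the whole muscle was frozen and had no enzyme step. Both kinds of library were ribosomal RNA depleted, and began with 50 ng of muscle RNA or 10 ng of mitochondrial RNA. The fraction, the enzyme treatment, the state of the tissue, the input and the depth differ together between the groups, so their parts cannot be told apart. Muscle libraries held 24309444 to 32055355 counts and mitochondria libraries 720111 to 1785865, so that 3 counts, the limit that a count of 0 allows, correspond to at most 0.123 CPM (gene counts scaled to a library total of 1e6) in a muscle library and to 1.68 to 4.17 CPM in a mitochondria library.

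The labelled tissue and fraction were checked on marker genes. The summed level of 7 skeletal muscle markers of 9 listed was 76658 to 118303 CPM in muscle and 344 to 619 CPM in mitochondria. Genes of the mitochondrial genome took 32.1% of counts in muscle and 33.0% in mitochondria, with 12.9% to 51.5% in single mitochondria libraries. Olfactory receptors, 1115 genes named with the prefix Olr, summed to 6.33 to 8.88 CPM in muscle and to 6690 to 11470 CPM in mitochondria, and the 77 vomeronasal type 1 receptors to at most 0.188 CPM and to 635 to 1055 CPM. Summed levels in muscle and in mitochondria ranged from 351 to 575 and from 251 to 450 CPM for 5 endothelial markers, from 31.2 to 56.8 and from 177 to 307 for 5 macrophage markers, and from 0.130 to 3.91 and from 64.4 to 131 for 4 adipocyte markers. They were 26.6 to 96.0 and 27.4 to 69.8 CPM for the 3 red blood cell markers present of 5, and 31.3 to 133 and 74.5 to 131 CPM for 4 Schwann cell markers. No marker present was at 0 in all libraries. In bulk libraries such as these, fewer cells of a type and less RNA per cell cannot be told apart. The part of these shifts in the results below was not tested.

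The leading 7SL, Y and vault RNA genes were lower in mitochondria. Of the 17 copies above 1 CPM in muscle, 16 were lower with TMM (edgeR's trimmed mean scaling), 13 with total counts and 12 under all 4 scalings used, while 30.3%, 9.03% and 4.33% of all genes tested were. The cut at 1 CPM in muscle itself favours lower values in mitochondria, and these shares cover genes at any muscle level. The 28 copies at 0 or below 1 CPM in muscle each had at least 1 count in mitochondria. Of these, 9 could be tested and were higher, but each passed the filter for low counts through mitochondria alone. That route favours this direction, so the direction is not independent of the filter, and 63.0% of all genes tested were higher. More copies of both multicopy families had a count in mitochondria than in muscle, but this was not particular to them. At equal depth, 39.6% to 40.4% of all genes had a count in muscle libraries and 87.4% to 91.0% in mitochondria libraries. At full depth with 3 or more counts required, the 7SL means were 16 ± 0.632 copies in muscle and 17 ± 2.90 in mitochondria (SD). The Y RNA means were then 2.33 ± 0.516 and 5.17 ± 0.983 copies.

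The 7SL copy with the most counts was ENSRNOG00000048993. It had 416, 245, 299, 386, 422 and 746 CPM in muscle replicates 1 to 6 and 4.17, 29.7, 20.3, 17.4, 20.3 and 18.0 CPM in the mitochondria of the same animals. Every muscle library lay far above every mitochondria library, and mitochondria replicate 1, with 3 counts for this gene, was the lowest. The means were 419 ± 175 and 18.3 ± 8.22 CPM (SD, n = 6 each), 22.9-fold lower in mitochondria, and the log2 fold change was -6.51 ± 0.26 (SE, edgeR quasi-likelihood test with TMM scaling, adjusted p = 3.14e-20).

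ENSRNOG00000055825, the 7SL copy with the next most counts, had 403, 162, 211, 325, 344 and 520 CPM in muscle and 4.17, 22.2, 11.3, 16.8, 21.7 and 21.3 CPM in mitochondria. The order of the animals in muscle was like that of ENSRNOG00000048993, with replicate 6 highest and replicate 2 lowest, and mitochondria replicate 1 was again the lowest. It fell by 6.27 on the log2 scale (SE 0.28, edgeR adjusted p = 2.63e-19), 20.2-fold by CPM. Of the counts on this pair of copies, ENSRNOG00000048993 held 56.3% ± 3.55 in muscle and 52.7% ± 6.80 in the mitochondria libraries (SD, n = 6 each). No source used here says how reads that match several 7SL copies were counted, so the split between near-identical copies is uncertain.

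ENSRNOG00000059449 fell from 53.4 ± 23 to 9.27 ± 4.28 CPM and ENSRNOG00000067948 from 24.2 ± 9.12 to 5.46 ± 3.21 CPM (SD, n = 6 each). Their log2 fold changes were -4.47 ± 0.28 and -4.08 ± 0.28 (SE, edgeR adjusted p = 2.15e-15 and 1.38e-14). Rn7sl1 gave 23.3, 10.7, 12.9, 16.2, 16.9 and 24.0 CPM in muscle and 2.78, 5.39, 4.50, 2.24, 6.10 and 3.33 CPM in mitochondria. Its groups did not overlap, and it fell by 4.14 on the log2 scale (SE 0.25, edgeR adjusted p = 5.44e-16), which lies within the range of the 7SL copies.

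**Figure D1:**
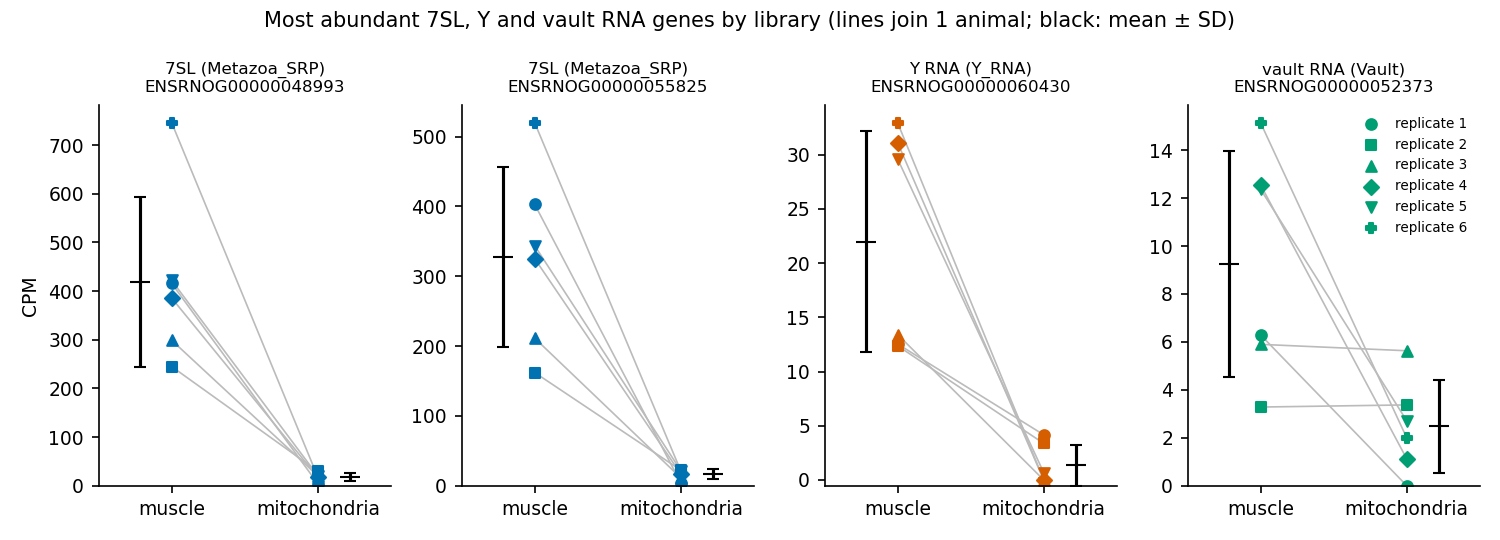
CPM of the 7SL copies ENSRNOG00000048993 and ENSRNOG00000055825, the Y RNA copy ENSRNOG00000060430 and the vault RNA gene ENSRNOG00000052373 in each library, with lines that join muscle and mitochondria of 1 animal and black marks for the mean ± SD of 6 libraries. In the first 3 panels all muscle points lie above all mitochondria points, while the vault RNA panel shows overlap between 3.28 CPM in muscle replicate 2 and 5.63 CPM in mitochondria replicate 3.

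The Y RNA copy with the most counts was ENSRNOG00000060430. It had 12.5, 12.4, 13.4, 31.1, 29.6 and 32.9 CPM in muscle replicates 1 to 6 and 4.17, 3.37, 0, 0, 0.678 and 0 CPM in mitochondria, which there rests on 9 counts in all. The muscle libraries lay in a pair of separate clusters, replicates 4, 5 and 6 above 29 CPM and replicates 1, 2 and 3 below 14 CPM, and both clusters were above every mitochondria library. What sets these animals apart was not tested. The mean fell from 22 ± 10.2 to 1.37 ± 1.89 CPM (SD, n = 6 each), 16.1-fold, with a log2 fold change of -6.28 ± 0.45 (SE, edgeR). This copy passed the filter through muscle alone, which favours a lower value in mitochondria, so no p is given.

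The other Y RNA copy above 1 CPM in muscle, ENSRNOG00000056608, had 2.26, 3.38, 1.34, 2.76, 3.68 and 3.70 CPM in muscle and 0, 0.674, 0, 0, 1.36 and 0.665 CPM in mitochondria. Its highest mitochondria library, replicate 5 with 2 counts, lay just above its lowest muscle library, replicate 3. It fell by 4.47 on the log2 scale (SE 0.51, edgeR), and was lower in mitochondria in 6 of 6 animals. It likewise passed the filter through muscle alone and is given without a p. The clusters of muscle libraries seen for ENSRNOG00000060430 were not present for this copy.

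The vault RNA gene, ENSRNOG00000052373, had 6.29, 3.28, 5.90, 12.5, 12.4 and 15.1 CPM in muscle and 0, 3.37, 5.63, 1.12, 2.71 and 2.00 CPM in mitochondria. Muscle replicates 4, 5 and 6 were again the highest, as for ENSRNOG00000060430, and the groups overlapped. It fell from 9.25 ± 4.71 to 2.47 ± 1.95 CPM (SD, n = 6 each), 3.74-fold, and was lower in mitochondria in 5 of 6 animals. Its log2 fold change was -3.97 ± 0.42 (SE, edgeR), given without a p since this gene too passed the filter through muscle alone. The mitochondria value rests on 19 counts, with none in replicate 1, where a count of 0 allows up to 4.17 CPM.

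Over all members, 26 of 45 copies passed the filter for low counts and could be tested. Of these, 16 were lower in mitochondria (61.5%), against 30.3% of the 24679 genes tested, and 9 were higher (34.6%), against 63.0% of the genes tested. The median log2 fold change of the tested copies was -2.24, and that of all genes tested was 2.51. These counts are not independent of the filter. The 9 higher copies were among 10 that passed only through the mitochondria libraries, and 6 of the lower copies, with the leading Y RNA copy and the vault RNA gene among them, passed only through muscle. Of the 10 copies that passed through both groups, 10 were lower with TMM, and 8 were lower and 1 was higher with total counts. The shares among all genes that passed through both groups were not drawn up, so these counts stand without a comparison. ENSRNOG00000055749, at 1.20 ± 0.336 CPM in muscle and 3.76 ± 1.25 CPM in mitochondria, was the tested copy without a call (log2 fold change -0.44, edgeR). It was the remaining copy that passed only through the mitochondria libraries, so no p is given.

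TMM scaling places a gene of equal CPM in both groups well below 0, since total counts as the only scaling raised the median log2 fold change of all genes by 2.10. With total counts, 13 of the 26 tested copies were lower (50.0%, against 9.03% of genes tested) and 11 were higher (42.3%, against 84.3%). With TMM, RLE, total counts and mitochondrial genome counts alike, 12 copies were lower (46.2%, against 4.33% of genes tested) and the same 9 copies were higher (34.6%, against 63.0%), all of them tested through mitochondria alone. The leading 7SL and Y copies and the vault RNA gene were among the 12. The direction of ENSRNOG00000051865, ENSRNOG00000054045, ENSRNOG00000060012 and ENSRNOG00000055749, all between 1 and 3 CPM in muscle and named after their values were seen, turned from negative with TMM to positive with total counts.

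**Figure D2:**
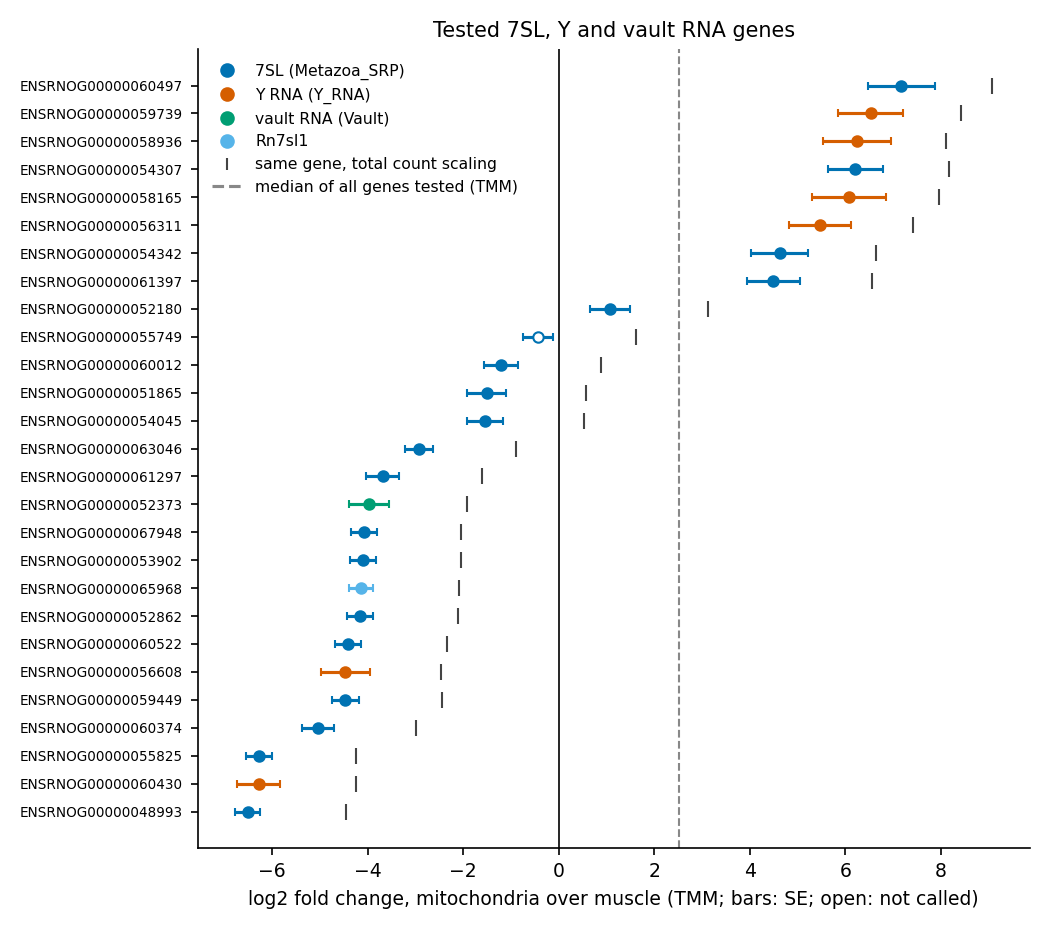
Log2 fold change of mitochondria over muscle for the 26 tested copies and Rn7sl1, sorted, with bars for the SE under TMM and ticks for the same gene under total count scaling. The 17 copies above 1 CPM in muscle, with Rn7sl1, occupy the lower part from -6.51 to -0.44, and the 9 other copies the upper part from 1.07 to 7.17.

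The copies with little or no muscle signal entered the test only where they were high in mitochondria, so they are described without a p. Among them, ENSRNOG00000060497, a 7SL copy, was without a count in all 6 muscle libraries and had 1.39, 9.44, 9.01, 2.24, 2.71 and 2.66 CPM in the mitochondria libraries. These are 35 counts, at least 254-fold above muscle when 3 counts over the muscle group are taken as the floor. The 7SL copy ENSRNOG00000054307 had 1 count in muscle and 32 in mitochondria, a CPM ratio of 696 with a 95% exact interval of 116 to 28335 for counting error alone. ENSRNOG00000061397, with 6 muscle counts, and ENSRNOG00000055587, with none, reached 4.68 ± 3.45 and 3.96 ± 2.85 CPM in mitochondria, but ENSRNOG00000055587 was left out by the filter. These last were singled out after their values were seen.

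The Y RNA copy ENSRNOG00000059739, with no muscle count, had 6.94, 1.35, 3.38, 1.68, 3.39 and 2.66 CPM in mitochondria replicates 1 to 6, at least 159-fold above muscle with 3 counts over the muscle group as floor. ENSRNOG00000058936, likewise at 0 in muscle, had 1.39, 1.35, 5.63, 1.12, 2.71 and 2.66 CPM there, at least 130-fold higher. All mitochondria libraries held a count for both, against none of the muscle libraries. ENSRNOG00000056311, with 1 muscle count and 19 in mitochondria, gave a ratio of 413 (95% exact interval 65.7 to 17168, counting error alone).

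The other Y RNA copies named here did not pass the filter. ENSRNOG00000060467 had no muscle count and 17 counts in mitochondria, at least 123-fold above the floor. ENSRNOG00000051625 had 4 and 16 counts, which are mean levels of 0.0231 and 2.67 CPM. ENSRNOG00000066329 had 10 and 4 counts, or 0.0612 and 0.581 CPM, and its groups overlapped. ENSRNOG00000051625 lay unevenly over the mitochondria libraries, with 9.72 CPM in replicate 1, none in replicate 5 and 1.12 to 2.7 CPM in the others.

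All 17 copies without a muscle count, 6 of 7SL and 11 of Y RNA, had at least 1 count in mitochondria, and 7 of them had one in every mitochondria library. The table held 10014 nuclear genes without a muscle count, and 93.4% of them had one in mitochondria. The mean levels of the 17 copies in mitochondria were 0.934 to 4.57 CPM for 7SL and 0.112 to 3.23 CPM for Y RNA. By CPM, 13 members were higher in every mitochondria library than in any muscle library (28.9%, against 68.1% of all genes), and 9 were lower in every mitochondria library than in any muscle library (9 of 45, against 5.50% of all genes). Without the filter all 45 copies were tested, of which 24 were higher and 16 lower in mitochondria, while 66.6% and 25.7% of the genes tested in that fit were. Leaving out any single muscle library, from replicate 1 to replicate 6, left 10 copies past the filter, of which 10 were lower and 0 higher. The cut of the filter follows the median library total, which is then that of a mitochondria library, so the cut rises. Of all genes, 20003 to 20007 were tested in these fits, against 24679, and the shares called among them were not drawn up.

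**Figure D3:**
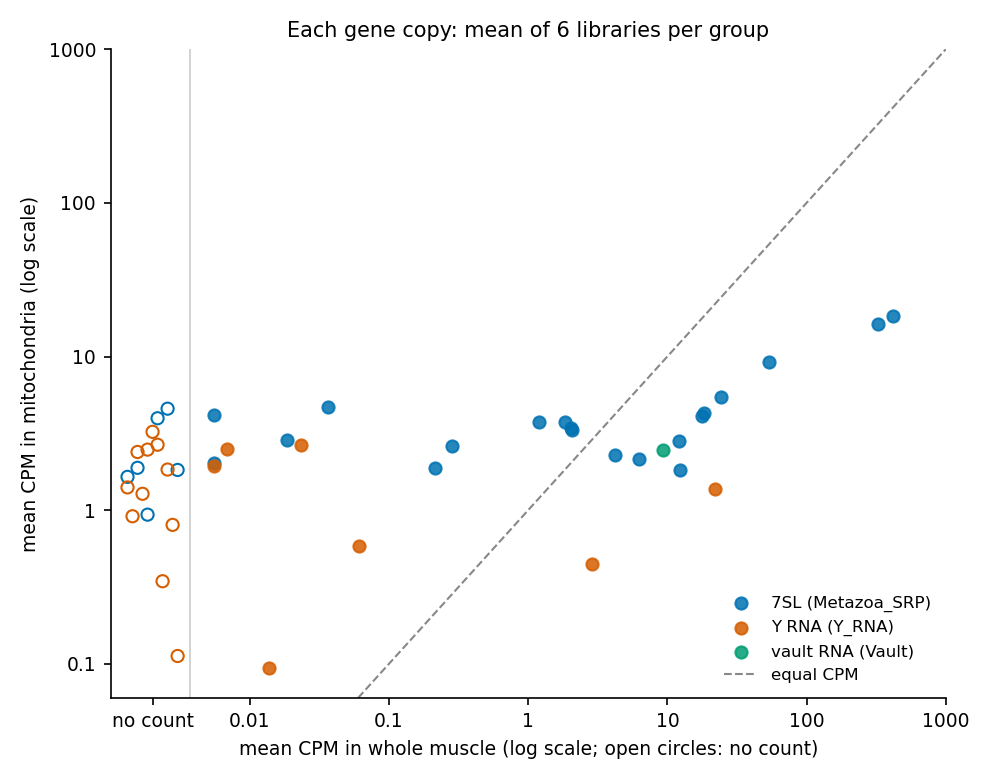
Mean CPM in muscle and in mitochondria for each of the 45 copies on log scales, with copies that had no muscle count as open circles at the left. The copies spread from no count to 419 CPM along the muscle axis, and from 0.0933 to 18.3 CPM along the mitochondria axis.

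The 14 7SL copies above 1 CPM in muscle spanned a 350-fold range of mean CPM there and a 10.1-fold range in mitochondria. Across them, muscle and mitochondria means ranked alike in part (Spearman's rho = 0.65, n = 14 copies, a description, since the copies share libraries and may share reads). The 3 with the most counts in muscle also had the most in mitochondria. Across the 18 Y RNA copies rho was -0.14, on 1 to 22 counts per copy in mitochondria. Gene lengths are not part of the table, so that levels were not compared between genes per length.

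The 3 7SL copies with the most counts in muscle held 88.2% ± 1.65 of the counts of the family there and 38.4% ± 14.1 in the mitochondria libraries (SD, n = 6 each). Mitochondria replicates 1 and 3 had the lowest shares, 15.3% and 26.5%, and the other mitochondria libraries had 44.2% to 49.7%. Replicates 1 and 3 had the least depth and also the lowest mitochondrial genome share, 20.3% and 12.9% of counts. The part of either was not tested. Copies without a muscle count made up 12.6% ± 4.94 of 7SL counts in mitochondria and 65.5% ± 7.29 of Y RNA counts. ENSRNOG00000060430 held 87.1% ± 4.89 of Y RNA counts in muscle and 4.52% ± 6.28 in mitochondria.

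**Figure D4:**
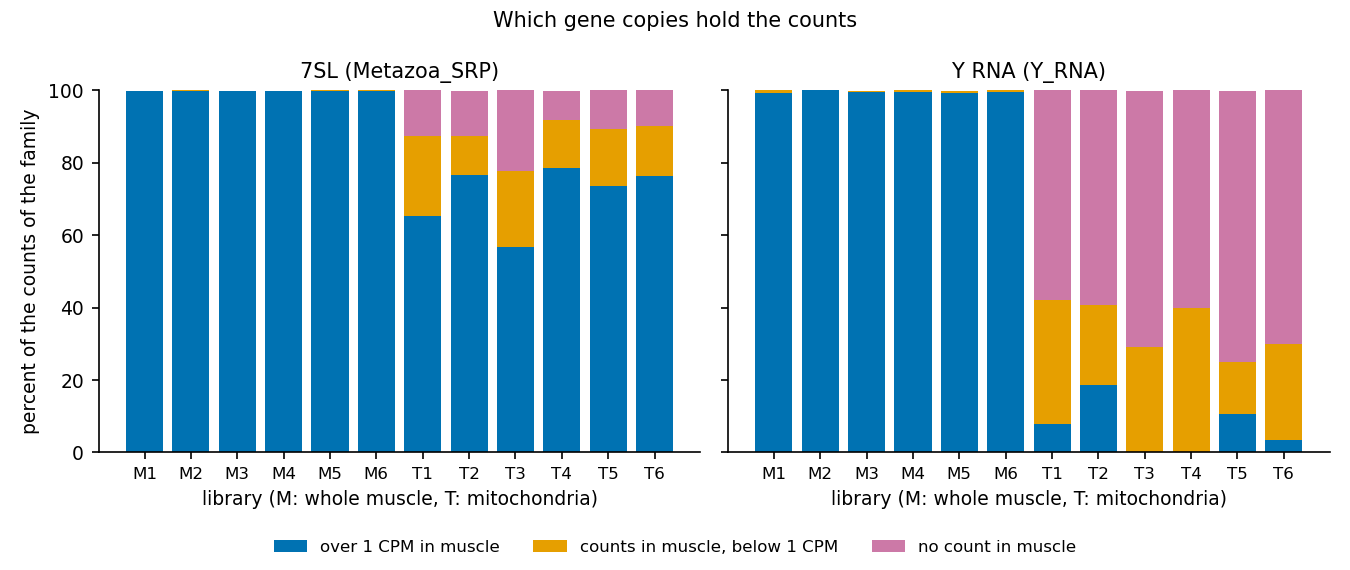
Percent of the counts of the 7SL and Y RNA families in each library that fell on copies above 1 CPM in muscle, on copies with muscle counts below 1 CPM and on copies with no muscle count. In the 6 muscle libraries nearly all counts lie on the first set, and in mitochondria the third set holds 8.18% to 22.1% of 7SL counts and 57.9% to 75.0% of Y RNA counts.

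The summed levels were lower in mitochondria for 7SL and overlapped for Y RNA. The 7SL sum was 1032, 502, 626, 861, 916 and 1479 CPM in muscle and 100.0, 151, 127, 89.0, 115 and 102 CPM in mitochondria, 7.91-fold lower by the means. The Y RNA sum was 14.9, 15.8, 14.8, 34, 33.5 and 36.8 CPM in muscle and 52.8, 21.6, 34.9, 14, 19 and 19.96 CPM in mitochondria, with means of 25.0 ± 10.8 and 27.0 ± 14.4 (SD, n = 6 each) that differed by less than the spread between libraries. Without its leading copy, the Y RNA sum was 2.96 ± 0.956 CPM in muscle and 25.7 ± 13.3 in mitochondria. No test was made on the sums.

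At equal depth, with every library thinned to 720111 counts, 13.2 ± 1.17 of 26 7SL copies had a count in muscle and 21.7 ± 2.34 in the mitochondria libraries (SD, n = 6 each). The same numbers for the 18 Y RNA copies were 1.67 ± 0.516 and 9.00 ± 2.00. At full depth they were 17.3 ± 1.63 and 24.5 ± 1.05 for 7SL and 3.50 ± 1.05 and 11.8 ± 1.33 for Y RNA. Of all genes, 39.6% to 40.4% had a count in the thinned muscle libraries and 87.4% to 91.0% in the thinned mitochondria libraries.

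The copies of other RNA polymerase III families give a measure for comparison. The U6 family, 796 copies of the spliceosomal RNA, summed to 7.44 ± 1.06 CPM in muscle and 769 ± 88.1 in mitochondria, and the 170 copies of 5S ribosomal RNA to 0.251 ± 0.156 and 40.0 ± 13.7 (SD, n = 6 each). Of the 27 U6 copies tested, 26 were higher and passed the filter through mitochondria alone, and 1 was lower and passed through muscle alone. These routes favour the same directions, so the directions are not independent of the filter (63.0% of all genes tested were higher). The difference between these families and the 7SL and Y copies was not tested.

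Among the genes of the proteins that bind these RNAs, Ybx3 and Ybx1 fell most, and the sign of many others depended on the scaling. All 7 tested genes of the signal recognition particle and its receptor were lower with TMM, against 30.3% of all genes tested (median log2 fold change -2.60). With total counts 5 were lower and 1 was higher (median -0.50), against 9.03% and 84.3%. With mitochondrial genome counts 0 were lower and 0 higher (median -0.09), and shares over all genes were not drawn up for that scaling. Srpra, the receptor subunit alpha, went from 90.7 ± 9.93 to 36.3 ± 12.4 CPM (SD, n = 6 each) and Srp14, which binds the Alu domain of 7SL with Srp9, from 31.6 ± 5.74 to 13.4 ± 3.68 CPM. Their log2 fold changes were -3.50 ± 0.13 and -3.36 ± 0.15 (SE, edgeR adjusted p = 2.53e-21 and 5.57e-19), and -1.38 and -1.28 with total counts. Srp54a, the GTPase that binds signal peptides, Srp68, Srp72 and Srp9 had log2 fold changes of -2.60, -2.48, -2.39 and -2.61, and Srp19, which takes part in particle assembly, had -1.13 with TMM and 0.95 with total counts.

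Of the Y RNA binding list, 5 of the 6 tested genes were lower and 1 was higher with TMM, against 30.3% and 63.0% of all genes tested (median -2.93). Ybx3 and Ybx1, cold shock domain proteins that bind RNA, fell from 686 ± 68.3 to 22.2 ± 5.54 CPM and from 220 ± 29.2 to 23.1 ± 10.3 CPM (SD, n = 6 each), and both were lower under all 4 scalings. Ssb, which encodes La, a protein that binds the 3′ end of new RNA polymerase III transcripts, went from 27.8 ± 2.62 to 11.9 ± 3.79 CPM. Its log2 fold change was -3.32 ± 0.15 (SE, edgeR adjusted p = 7.73e-19), and -1.25 with total counts. Puf60 had a log2 fold change of -2.53. Ro60, the protein that gives the Ro particle its name, had 18.1 ± 1.34 and 23.5 ± 10.4 CPM, which is -1.73 with TMM and 0.35 with total counts (edgeR adjusted p = 0.0957). The gene that was higher, Zbp1, from 0.134 ± 0.0988 to 23 ± 6 CPM, encodes by this symbol a sensor of Z-form nucleic acids and is not an established partner of Y RNA. It passed the filter through mitochondria alone, which favours this direction.

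The vault proteins and the partners of 7SK were near equal or higher by CPM. Mvp, the major vault protein, had 32.5 ± 2.79 CPM in muscle and 34.2 ± 8.91 in mitochondria, and Tep1, a further vault protein that also binds telomerase RNA, 44.6 ± 2.86 and 133 ± 38.6 (SD, n = 6 each). With TMM both were lower, at -2.07 and -0.57 (30.3% of all genes tested were lower), and with total counts Tep1 was higher, at 1.56, and Mvp was at 0.03 (edgeR adjusted p = 3.21e-14 and 0.862). Of the 7 tested genes of the 7SK particle and P-TEFb, 6 were lower and 1 was higher with TMM (median -1.44), against 30.3% and 63.0% of all genes tested. With total counts 5 were higher and the other 2 passed in neither direction (median 0.67), against 84.3% of all genes higher. Larp7, which protects the 3′ end of 7SK, had 14.2 ± 1.34 and 29.8 ± 7.24 CPM, and Mepce, which caps its 5′ end, 29.4 ± 3.66 and 31.4 ± 8.22 (SD, n = 6 each). The log2 fold changes with TMM and with total counts were -1.08 and 1.02 for Larp7 and -2.05 and 0.05 for Mepce. For Hexim1, the inhibitor of P-TEFb, they were -1.96 and 0.14, and for its kinase Cdk9 -1.61 and 0.47. They were -0.87 and 1.22 for the cyclin Ccnt1 and -1.44 and 0.67 for the cyclin Ccnt2. Hexim2, a paralog of Hexim1, was higher under both, from 4.51 ± 0.423 to 26.4 ± 11.5 CPM, at 0.35 with TMM (edgeR adjusted p = 0.0471, and 0.0680 with animal as a block) and 2.48 with total counts. Without mitochondria replicate 1, 3, 4 or 6, its TMM call was lost (edgeR adjusted p = 0.0919 to 0.208).

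Of the 26 tested genes of RNA polymerase III and its factors, 15 were lower, 4 were higher and 7 passed in neither direction with TMM (median -0.37), against 30.3% of all genes lower and 63.0% higher. With total counts 23 were higher and 2 lower (median 1.72), which is near the 84.3% and 9.03% of all genes. Maf1, the repressor of this polymerase, went from 67.5 ± 6.2 to 30.4 ± 7.62 CPM (SD, n = 6 each). Its log2 fold change was -3.29 with TMM and -1.19 with total counts. Gtf3c1, the largest subunit of factor TFIIIC, went from 53.2 ± 2.57 to 102 ± 30.2 CPM (-1.22 and 0.91), and the subunit gene Polr3d from 34.3 ± 4.30 to 30.9 ± 11.1 CPM (-2.33 and -0.21). Polr3g, a polymerase subunit best known from stem cells, rose from 0.775 ± 0.288 to 26.7 ± 5.15 CPM, at 2.97 and 5.06. Polr3g passed the filter through mitochondria alone, which favours a higher value there, so no p is given. In each list the median lay below that of all genes tested, which was 2.51 with TMM and 4.61 with total counts. All tested genes of the lists had muscle counts, while the genes tested include some with none, so the sets are not alike.

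**Figure D5:**
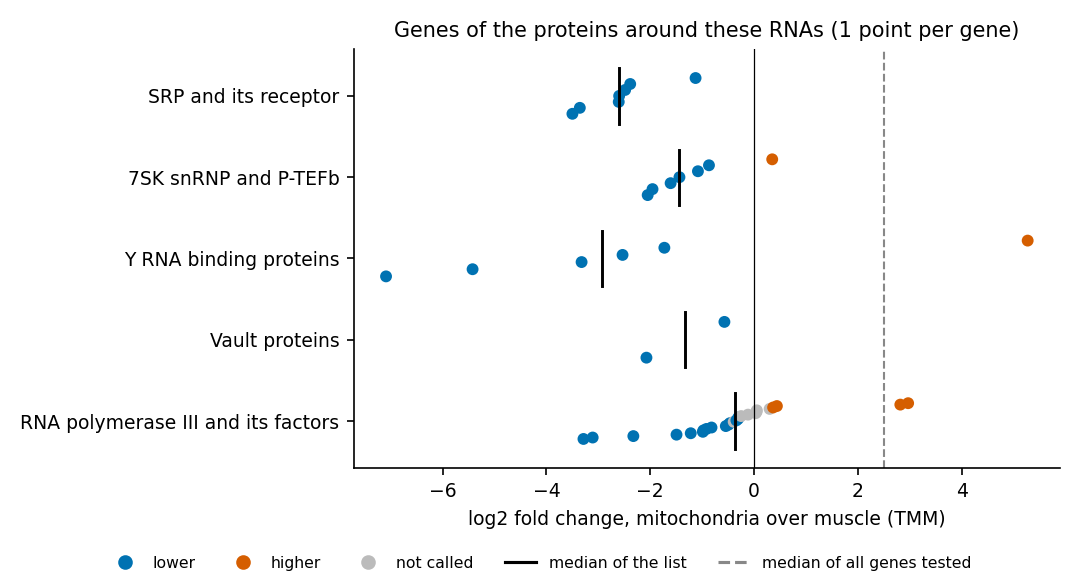
Log2 fold change of mitochondria over muscle with TMM scaling for each tested gene of the 5 protein lists, with a black bar for the median of a list and a dashed line for the median of all genes tested, 2.51. The genes of the signal recognition particle lie between -3.50 and -1.13, and those of RNA polymerase III and its factors between -3.29 and 2.97.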

How the data were processed

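Raw counts per gene were deposited by the authors in a table with 1 column per library, all 12 of which matched a sample by its description. Per the submitters' processing notes, FastQC 0.74, cutadapt 4.6, STAR 2.7.11a, HTSeq and the build mRatBN7.2 were used. No source used here gives the strand setting, the handling of reads with several matches or the annotation release, so reads of overlapping or antisense genes may not be told apart.

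Groups came from the titles, with the animals as replicates, and p-values measure the spread between animals and preparations. No 2 libraries of a group agreed within sampling noise (chi-square per degree of freedom of at least 1.54). Counts of the whole table were tested with edgeR 4.0.16 (glmQLFit, glmQLFTest) in R 4.3.3, with TMM scaling, filterByExpr with a minimum count of 10 and group as the only term. That minimum holds at the median library total, so fewer counts suffice in a mitochondria library. ENSRNOG00000058936, for instance, passed with 1 to 5 counts per mitochondria library. Benjamini-Hochberg adjustment ran over all genes tested, with a threshold of 0.05. SE is the absolute log2 fold change over the square root of F, and a positive value means higher in mitochondria. The script was tested on simulated data. CPM are gene counts scaled to a library total of 1e6. A fold against a group without counts used a floor of 3 counts over the group, and ratios with 1 to 3 counts carry exact 95% intervals (SciPy 1.17.1). Floors and intervals cover counting error only.

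Same-numbered libraries come from the same animal, per the labels. Deviations from the group means correlated at -0.0045 to 0.0217 between them. Animal as a block, RLE size factors, total counts, mitochondrial genome counts, no filter, DESeq2 1.42.0, thinning to 720111 counts and leaving out each library were the alternatives.

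The members, gene lists and tests were chosen with earlier results of these data known. Named copies are, per family, the 4 highest in each group and the 2 largest rises and falls past the threshold, or all copies of a family of at most 6, and copies with another symbol for the same RNA. ENSRNOG00000051865, ENSRNOG00000054045, ENSRNOG00000055749, ENSRNOG00000060012, ENSRNOG00000052180, ENSRNOG00000061397 and ENSRNOG00000055587 fall outside this rule and were named after their values were seen. Named protein genes are all tested genes of a list of up to 8, otherwise the 3 highest in muscle and the largest rise and fall. None of the members matched the RefSeq tables used here.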

Additional observations from a re-analysis of the deposited data

Results flagged for a closer look

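In 9 of 88 groups of 6 libraries examined, 1 library stood apart from the others, with a gap to its nearest neighbour that was large against the range of the group (Dixon's 95% critical value). For normally distributed values chance gives about 1 such group in 20, a rate that need not hold for low counts. Groups at 0 in all 6 libraries are among the 88 and cannot be flagged, while a single count in a group always is. Among 7SL copies, muscle replicate 6 stood high for ENSRNOG00000048993, at 746 CPM. Muscle replicate 1 had the 1 muscle count of ENSRNOG00000054307, 0.0333 CPM, and muscle replicate 4 that of the Y RNA copy ENSRNOG00000056311, 0.0411 CPM. Among Y RNA copies, mitochondria replicate 3 stood high for ENSRNOG00000066329, at 2.25 CPM, and for ENSRNOG00000058936, at 5.63 CPM. Mitochondria replicate 1, the library with the fewest counts, stood high for ENSRNOG00000051625, at 9.72 CPM, and ENSRNOG00000059739, at 6.94 CPM, which are 7 and 5 counts. Of the protein genes, Hexim2 stood high in muscle replicate 5, at 5.34 CPM, and Ybx1 in mitochondria replicate 1, at 43.0 CPM.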

How the results depend on the processing

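Of the 26 copies tested, 9 were higher (34.6%, against 63.0% of all genes tested) and 16 lower (61.5%, against 30.3%). The number higher was 24 without the filter on low counts (66.6% of all genes tested there) and 23 in DESeq2, which test all 45. It was 0 after thinning, where 3 copies were tested and 3 were lower. Shares over all genes were not drawn up for DESeq2, thinning, RLE, mitochondrial genome counts, the block or single libraries left out. Leaving out single libraries gave 0 to 10 higher and 10 to 16 lower, and 4 to 7 higher and 31 to 36 lower protein genes. The value of 0 higher arose where a muscle library was left out, which raised the cut of the filter. Of the 48 protein genes tested 6 were higher and 35 lower, against 63.0% and 30.3% of all genes tested. The numbers higher were 10 with RLE, 10 in DESeq2, 31 with total counts, 28 with mitochondrial genome counts and 17 after thinning. The numbers lower were 11, 2 and 17 in the last 3 of these. With total counts 84.3% of all genes tested were higher and 9.03% lower. The log2 ratio of the summed 7SL CPM was -2.98, and -2.34 without the leading copy. That of Y RNA was 0.11, 3.11 without the leading copy and -1.38 over copies with a muscle count, an alternative chosen after seeing the data, and -0.19 to 0.26 without single libraries. Copies with a count differed by 7.17 for 7SL and 8.33 for Y RNA, and copies with 3 or more counts by 1 and 2.83. The cause of these differences was not tested, beyond the smaller number of copies tested. With animal as a replicate block, 8 copies were higher and 16 lower. ENSRNOG00000052180, higher at 1.07 in the main fit, lost its call with the block (1.05) and without mitochondria replicate 5 (0.72). This copy passed the filter through mitochondria alone, so no p is given. Besides that copy and Hexim2, at 0.35, the block changed no other call among the named genes.

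With total counts and with mitochondrial genome counts, in this order, the log2 fold changes that turned positive were 0.58 and 0.90 for ENSRNOG00000051865, 0.53 and 0.85 for ENSRNOG00000054045, 1.62 and 1.67 for ENSRNOG00000055749, and 0.89 and 1.36 for ENSRNOG00000060012. They were 0.95 and 1.22 for Srp19, 0.054 and 0.41 for Mepce, 0.14 and 0.47 for Hexim1, 0.67 and 1.05 for Ccnt2, 0.47 and 0.75 for Cdk9, 1.02 and 1.4 for Larp7, and 1.22 and 1.52 for Ccnt1. For Ro60 they were 0.35 and 0.58, for Tep1 1.56 and 2.00, for Mvp 0.032 and 0.43, and for Gtf3c1 0.91 and 1.35. With mitochondrial genome counts alone, Srp72 was at 0.073 and Polr3d at 0.21. Srpra, Srp68, Srp54a, Srp14, Srp9, Puf60, Ssb, Maf1 and ENSRNOG00000063046 stayed negative with that scaling but lost their calls (edgeR adjusted p = 0.0630 to 0.933). With total counts, Srp72 and Polr3d stayed negative and lost theirs. The choice of scaling sets the zero of these values. After thinning, which also changes the depth and the genes tested, Ccnt1 was at 0.22 and Tep1 at 0.63, and the cause was not tested.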
